A study of Saccharomyces cerevisiae with 16 samples.

Results

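The 8 genes described here encode abundant proteins of the surface of budding yeast: the wall mannoproteins CCW12 (YLR110C), HPF1 (YOL155C), CWP1 (YKL096W), CWP2 (YKL096W-A) and TIP1 (YBR067C), the wall enzyme GAS1 (YMR307W), the proton pump PMA1 (YGL008C) and the phosphate transporter PHO84 (YML123C). They were chosen by name, with their levels in earlier results of these arrays known, and each is 1 of the 13059 features that both array layouts carried. All 8 were found, CWP2 under its older name YKL097W-A, and each group had at least 3 arrays with a value for each gene. Because levels of IP over input chose the genes, those levels are given as a description, and nothing is read from a test of them. Differences between groups were tested, except for PHO84 and HPF1 in the 2 differences that involve the Rrm3 IP.

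The series used chromatin immunoprecipitation (IP) with a MYC antibody and two-colour arrays to locate a DNA polymerase and a helicase along the chromosomes of haploid W303a cells, which grew asynchronously in rich medium. Group 1 was the IP of DNA Pol2-13MYC from cells labelled rrm3 delete (6 arrays). Group 2 was the IP of Rrm3-13MYC (5 arrays), and group 3 the IP of DNA Pol2-MYC from cells with no deletion named (4 arrays, called wild type). In all groups the IP was set against total genomic DNA (input) on arrays of PCR products, each from an open reading frame (ORF) or an intergenic region, and every value below is the log2 ratio of IP over input with the median of the array at 0. The series text states at least 3 biological replicates and 1 dye swap, but the labels do not tie arrays to cultures, so the errors measure the spread between arrays, part of which may be technical. No IP from untagged cells was analysed here.

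DNA Pol2 is the catalytic subunit of DNA polymerase epsilon, which copies DNA at replication forks, and Rrm3 is a helicase known to help forks pass obstacles made of tightly bound protein. The wall of budding yeast is a mesh of glucan and chitin with an outer coat of mannoproteins, many of them attached through glycosylphosphatidylinositol anchors. The plasma membrane beneath it holds Pma1, the pump that exports protons and drives most nutrient uptake. Many of these genes are strongly transcribed in cells growing in rich medium, and PHO84 is known to be induced when phosphate runs short. Transcription was not measured here.

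Some arrays stood apart from their labels. The RRM3 spot itself should be dim in input DNA where the gene is deleted, and it lay at percentiles 1.6 to 12 of the input signal on 5 arrays labelled rrm3 delete, but at percentile 50 on the sixth (array 239), against 32.2 to 94.8 on the Rrm3 IP arrays and 32.7 to 90.4 on the wild-type arrays. Array 136 is labelled as wild type with the IP in Cy5, yet read that way its correlations with the rest ran from -0.54 to -0.15. The deposited table has it turned, and the turned direction is used here, with the labelled direction beside the results it changes. On array 136 and array 182, 49.7% and 54% of spots carried a quality flag. The protocol label of array 086 (wild type) also names an antibody to a histone mark. The width of the distribution (median absolute deviation of the log2 ratios) was 0.39 to 0.59 on the arrays labelled rrm3 delete, 0.42 to 1.06 on the Rrm3 IP arrays and 0.33 to 0.46 on the wild-type arrays, so a given log2 ratio is not equally far out in each group. Array 031 (Rrm3 IP) was the widest.

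CCW12, HPF1, PMA1, PHO84 and GAS1 were above the array median on nearly every array in all 3 groups, whereas the fitted levels of CWP1, CWP2 and TIP1 were 0.48 or less. CWP2 ranged from -1.43 to 1.21 in the Rrm3 IP. The median of the 8 fitted levels was 0.69 on arrays labelled rrm3 delete, 1.01 in the Rrm3 IP and 0.75 in the wild-type Pol2 IP. In the fit, 5, 5 and 4 of the 8 passed an adjusted p of 0.05 as higher than the array median, where 9.38%, 11% and 0.937% of all 12380 features tested did so. The genes were chosen on these levels, so nothing is read from those counts or from which genes passed. With array 136 as labelled, the fitted wild-type levels of CCW12, HPF1, PMA1 and PHO84 were 0.6, 0.56, 0.54 and 0.43, and none of the 8 passed in wild type, where 0.0404% of all features did.

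**Figure D1:**
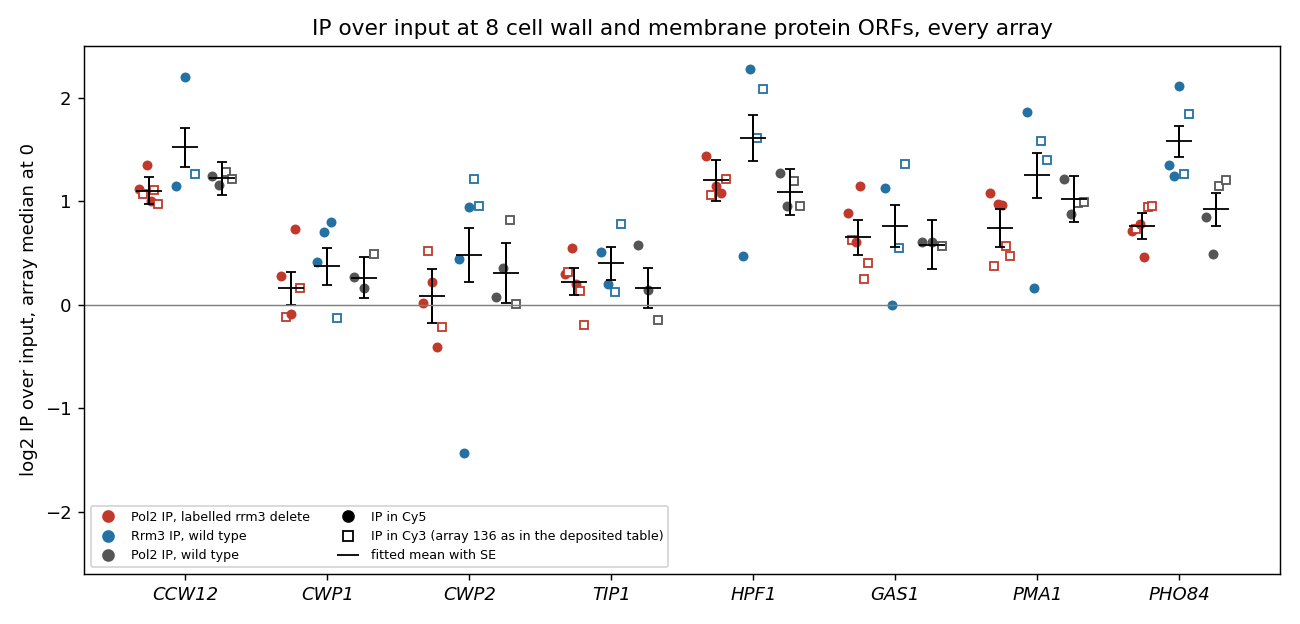
Log2 IP over input (vertical axis, array median at 0) of each ORF on every array, with arrays labelled rrm3 delete, Rrm3 IP and wild-type Pol2 IP from left to right within each gene. Filled circles are arrays with the IP in Cy5, open squares arrays with the IP in Cy3 or, for array 136, turned as in the deposited table; black bars are fitted means with their SE. CCW12 lies between 0.97 and 2.2 on all arrays that measured it, while CWP1, CWP2 and TIP1 straddle 0.

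CCW12 encodes a small, abundant mannoprotein needed for normal wall strength. On the 6 arrays labelled rrm3 delete it ranged from 0.97 to 1.35 with a median of 1.09. The Rrm3 IP gave 1.15, 2.2 and 1.26 on arrays 041, 088 and 185, its spots on arrays 031 and 184 being flagged. In wild type it read 1.24, 1.16, 1.28 and 1.21 on arrays 039, 086, 136 and 230. The 3 groups overlapped, and array 088 alone stood above the others. Among all features of an array, CCW12 had a median percentile of 97.2 on arrays labelled rrm3 delete, 99.3 in the Rrm3 IP and 98.7 in wild type.

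HPF1 encodes a large wall mannoprotein known for keeping haze from forming in wine. It ranged from 1.06 to 1.44 with a median of 1.15 on the 5 arrays labelled rrm3 delete that measured it. Rrm3 IP values were 0.47, 2.28, 1.61 and 2.08 on arrays 031, 088, 184 and 185. In wild type it read 1.27, 0.95, 1.19 and 0.95. The Rrm3 IP held both the lowest and the 3 highest values, so its spread (SD 0.81, n = 4) was wider than that of the arrays labelled rrm3 delete (SD 0.15, n = 5) and of wild type (SD 0.16, n = 4). By percentile, Rrm3 IP array 184 was at 95.2, below the lowest array of wild type (96.4) and of those labelled rrm3 delete (97.2).

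CWP1, CWP2 and TIP1 are anchored wall mannoproteins, and CWP1 and CWP2 lie next to each other on the chromosome with 1 intergenic region, spotted as 2 pieces, between them. CWP1 ranged from -0.12 to 0.73 with a median of 0.16 on the 5 measured arrays labelled rrm3 delete. It read 0.41, 0.7, 0.8 and -0.13 on Rrm3 IP arrays 041, 031, 088 and 185, and 0.27, 0.16 and 0.49 on wild-type arrays 039, 086 and 230. CWP2 ranged from -0.41 to 0.52 with a median of 0.02 on 5 arrays labelled rrm3 delete. CWP1 thus fell below the array median on at least 1 array labelled rrm3 delete and 1 Rrm3 IP array, and on no measured wild-type array.

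In the Rrm3 IP, CWP2 read 0.44, -1.43, 0.94, 1.21 and 0.95 on arrays 041, 031, 088, 184 and 185, and in wild type 0.07, 0.35, 0.82 and 0.01. Array 031 was thus far below the other 4 Rrm3 IP arrays. TIP1, a mannoprotein induced by temperature shock, ranged from -0.2 to 0.55 with a median of 0.25 on arrays labelled rrm3 delete. It read 0.51, 0.2, 0.12 and 0.78 on Rrm3 IP arrays 041, 031, 184 and 185, and 0.58, 0.14 and -0.15 on wild-type arrays 039, 086 and 230. Its groups overlapped over most of their range.

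GAS1 encodes the main glucanosyltransferase of growing cells, which lengthens the glucan chains of the wall. It ranged from 0.25 to 1.15 with a median of 0.62 on arrays labelled rrm3 delete. The Rrm3 IP gave 1.13, 0, 0.55 and 1.36 on arrays 041, 031, 184 and 185, and wild type gave 0.61, 0.61 and 0.57 on arrays 039, 086 and 230. The wild-type arrays differed by less than 0.05 from one another, whereas the Rrm3 IP arrays ran from the array median to the highest value of all.

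PMA1 ranged from 0.37 to 1.08 with a median of 0.76 on arrays labelled rrm3 delete. Rrm3 IP values were 1.86, 0.16, 1.58 and 1.4 on arrays 041, 031, 184 and 185, and wild-type values were 1.21, 0.88, 0.98 and 0.99. Except on array 031, the Rrm3 IP values lay above every Pol2 IP value. By percentile the groups overlapped: Rrm3 IP array 184 was at 95.1, below every wild-type array (95.9 to 99.4). PMA1 had the brightest input spot of the 8, at a median percentile of 79.6, and CWP1 the dimmest, at 11.8. On arrays 031 and 041, which had the second layout, the CWP1 input spot was at percentiles 84.4 and 82. The CWP2 input spot was at 70.6 and 74.5 there, against a median of 19.5 over the arrays in groups.

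PHO84 encodes the high-affinity phosphate transporter. It ranged from 0.46 to 0.95 with a median of 0.76 on arrays labelled rrm3 delete. All 5 Rrm3 IP arrays measured it, at 1.35, 1.24, 2.11, 1.26 and 1.84 on arrays 041, 031, 088, 184 and 185. In wild type it read 0.85, 0.49, 1.15 and 1.2. PHO84 was the only one of the 8 genes whose Rrm3 IP arrays all lay above every array of both Pol2 IP groups; 2.71% of all features did so against wild type and 1.75% against the arrays labelled rrm3 delete. PHO84 had been picked for a high Rrm3 IP level, so this is a description. Its median percentile was 99.7 in the Rrm3 IP, 93.2 on arrays labelled rrm3 delete and 97.5 in wild type. By percentile the groups overlapped. Rrm3 IP arrays 031 and 184 were at 91.7 and 92.2, below wild-type array 230 (98.2) and array 240 (94.7), labelled rrm3 delete.

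The question of the series was whether loss of the helicase changes polymerase association, and at these 8 ORFs no difference passed the test. Pol2 IP on arrays labelled rrm3 delete minus Pol2 IP in wild type ran from -0.28 for PMA1 to 0.11 for HPF1, with a median of -0.1. None of the 8 passed at an adjusted p of 0.05 in limma, and none had an unadjusted p under 0.05, where 69 of 12380 features (0.557%) passed the adjusted test. For CCW12 the difference was -0.12 (95% interval -0.56 to 0.33), for GAS1 0.07 (-0.54 to 0.69), for PMA1 -0.28 (-0.87 to 0.32) and for PHO84 -0.16 (-0.6 to 0.28). For HPF1 it was 0.11 (-0.53 to 0.75), for CWP1 -0.09 (-0.65 to 0.46), for CWP2 -0.23 (-1.06 to 0.6) and for TIP1 0.06 (-0.44 to 0.55). A p that misses the threshold does not show that the groups were alike: the intervals give the changes that these arrays do not exclude. With array 136 as labelled, HPF1 moved to 0.65, the differences of CCW12, CWP2, PMA1 and PHO84 were positive, at 0.51, 0.05, 0.2 and 0.33, and the median was 0.14. None passed there either, where 0.347% of all features did.

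**Figure D2:**
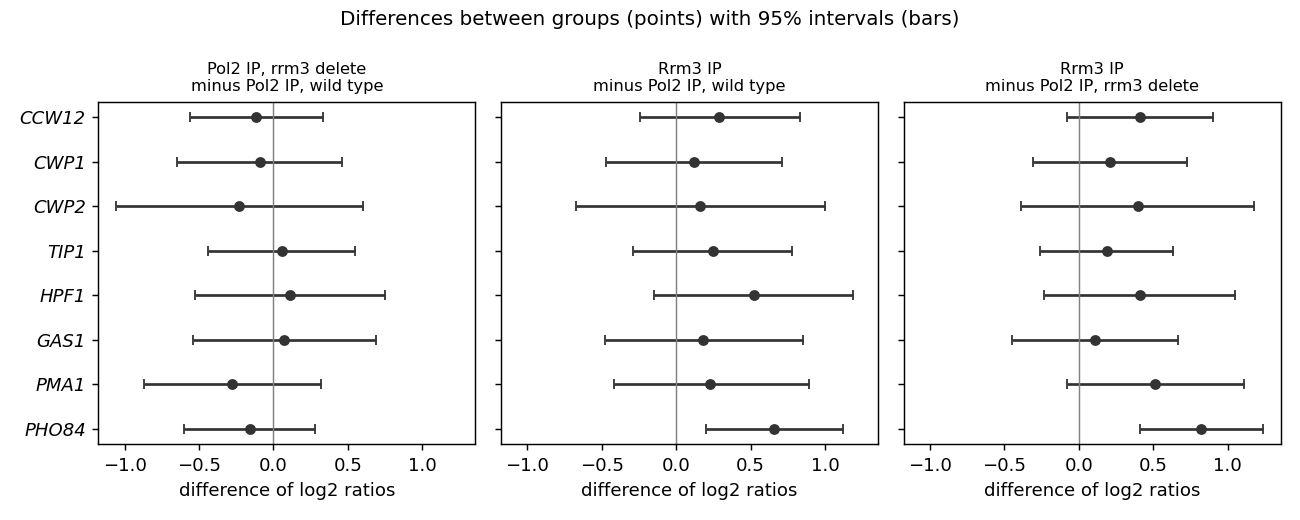
Differences of fitted log2 IP over input (horizontal axis) for the 8 ORFs, as points with 95% intervals, for arrays labelled rrm3 delete minus wild type, Rrm3 IP minus wild type and Rrm3 IP minus arrays labelled rrm3 delete. In the first panel every interval holds 0; in the other panels all points are above 0, and PHO84 lies farthest right at 0.66 and 0.82; with arrays scaled to the same width, 4 points of the second panel and that of HPF1 in the third fall below 0.

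Rrm3 association was then set against polymerase association. Rrm3 IP minus Pol2 IP in wild type was positive for all 8, from 0.12 for CWP1 to 0.66 for PHO84, although with every array scaled to the same width the sign turned for CCW12 (-0.17), HPF1 (-0.1), PMA1 (-0.09) and CWP1 (-0.07), GAS1 was at 0, and the median over the 8 was -0.03, against 0.24 unscaled. With array 136 as labelled this difference was larger for 5 of the 8, at 0.95 for CCW12, 0.44 for CWP2, 0.71 for PMA1, 1.05 for HPF1 and 1.16 for PHO84, and the median over the 8 was 0.58. CWP1, TIP1 and GAS1, which array 136 did not measure, stayed at 0.12, 0.25 and 0.18, and adjusted p-values of the 6 tested genes were 0.454 to 0.874 (limma). In the deposited direction none of the 6 tested genes passed, at adjusted p-values of 0.681 to 0.902 in limma and with no unadjusted p under 0.05. Across all features 1 of 12380 passed (0.00808%). Rrm3 IP minus Pol2 IP on arrays labelled rrm3 delete was also positive for all 8, from 0.11 for GAS1 to 0.82 for PHO84, with HPF1 turning to -0.11 and GAS1 falling to 0.01 when scaled, and none of the 6 tested genes passed (adjusted p 0.33 to 0.856, limma, with no unadjusted p under 0.05), where 2.32% of all features passed and 0.412% as higher. The 2 differences share the Rrm3 IP arrays, so they are not separate evidence. All 3 differences share arrays in this way.

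PMA1 differed by 0.51 ± 0.28 (SE) and CWP2 by 0.4 ± 0.37 between the Rrm3 IP and the arrays labelled rrm3 delete, at adjusted p-values of 0.33 and 0.587 in limma. Both moved with array 031, which held the lowest Rrm3 IP value of each gene, although Dixon's test called neither value an outlier. Without it PMA1 differed by 0.94 (adjusted p 0.00536, limma) and CWP2 by 0.83 (adjusted p 0.0418). In that setting 589 features passed, against 287 with all arrays. Without both arrays of the second layout, 031 and 041, CWP2 differed by 0.96 (adjusted p 0.0373, limma), where 421 features passed. PMA1 was then left with too few Rrm3 IP arrays for a fit. Both settings leave out the lowest Rrm3 IP value of the gene, which by itself raises the difference. Nothing is therefore read from the adjusted p-values under the threshold there. For PHO84 and HPF1, which had been picked for high Rrm3 IP levels, the values are a description: PHO84 was 0.66 ± 0.22 above wild type and 0.82 ± 0.2 above the arrays labelled rrm3 delete, and HPF1 was 0.52 ± 0.31 and 0.41 ± 0.3 above them. Scaled to the same width, the PHO84 differences were 0.16 and 0.43, and those of HPF1 -0.1 and -0.11.

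The features on either side of each ORF were not used to choose the genes, and they differ from gene to gene. Sheared fragments of one bound region can reach neighbouring spots, so a neighbour's signal is not independent of the ORF's. Levels on these arrays chose the ORFs but not the neighbours. How often and by how much an ORF exceeded its neighbours is therefore a description, partly set by that choice. Of 44 features within 3 positions of the 8 ORFs, 41 were tested. On arrays labelled rrm3 delete 4 passed as higher than the array median, in the Rrm3 IP 12 did, and in wild type 1 did, where 9.38%, 11% and 0.937% of all features passed as higher. As lower, 8, 3 and 0 passed, where 6.91%, 12.7% and 2.37% of all features did. These counts moved with single arrays. Leaving out wild-type array 039, 086 or 230 gave 2 higher on arrays labelled rrm3 delete and 3 in the Rrm3 IP. Of the 12 in the Rrm3 IP, only IYLR110C, IYML125C and IYML123C were measured on all 4 wild-type arrays. Of the 4 on arrays labelled rrm3 delete, only IYLR110C and IYKL098W were. The rest then had too few wild-type arrays for a fit, so these falls do not show that a call rested on 1 array. Leaving out Rrm3 IP array 184 gave 7 in the Rrm3 IP. The wild-type count was 6 without array 031, 3 without array 088 and 0 without any 1 of the 4 wild-type arrays.

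Both intergenic regions next to CCW12 had positive fitted levels in all 3 groups. The intergenic region downstream, IYLR109W, had fitted levels of 0.68 ± 0.17 (SE) on arrays labelled rrm3 delete, 1.12 ± 0.19 in the Rrm3 IP and 0.79 ± 0.25 in wild type. The region upstream, IYLR110C, had 0.72 ± 0.18, 0.66 ± 0.2 and 0.53 ± 0.22 in the same groups. Both passed as higher on arrays labelled rrm3 delete and in the Rrm3 IP (adjusted p 0.0139 and 0.00198 downstream, 0.0114 and 0.0254 upstream, limma), and neither passed in wild type (0.1 and 0.227). The next gene downstream, AHP1, a peroxiredoxin, read 0.02, -0.16 and 0.21, none of which passed, and the region beyond it, IYLR108C, was lower than the array median on arrays labelled rrm3 delete (-0.54, adjusted p 0.0113) and in the Rrm3 IP (-0.53, adjusted p 0.0187), with -0.08 in wild type. The ORF exceeded both its neighbours on 10 of 12 arrays that measured all 3.

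PMA1 was the opposite case, with signal on the ORF and little in the 2 regions next to it. Upstream, IYGL008C had -0.56 ± 0.16 on arrays labelled rrm3 delete, 0.03 ± 0.16 in the Rrm3 IP and -0.13 ± 0.18 in wild type, the first of them lower than the array median (adjusted p 0.0254, limma). Downstream, IYGL009C had -0.3, 0.21 and -0.07, and none passed. On all 13 arrays that measured the 3 features, the PMA1 ORF exceeded both neighbours, by a mean of 1.27 ± 0.29 (SD) upstream and 1.1 ± 0.36 downstream. The ORF was chosen on its level, so nothing is read from this count. One ORF further downstream, LEU1, an enzyme of leucine synthesis, read 0.28, 0.56 and 0.65, and passed in the Rrm3 IP (adjusted p 0.0283, limma). The region beyond it, IYGL010W, had 0.15, 0.6 and 0.37, and also passed in the Rrm3 IP (adjusted p 0.0145).

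HPF1 was lopsided. The first piece upstream, IYOL155C-0, had 0.64 ± 0.19 on arrays labelled rrm3 delete, 0.9 ± 0.19 in the Rrm3 IP and 0.85 ± 0.24 in wild type, and passed in the first and the second (adjusted p 0.0296 and 0.0053, limma). The first piece downstream, IYOL156W-1, had -0.67 ± 0.14, 0.02 ± 0.14 and -0.46 ± 0.15, and was lower than the array median on arrays labelled rrm3 delete (adjusted p 0.00285). On the 12 arrays that measured all 3, HPF1 exceeded this downstream piece every time, by a mean of 1.72 ± 0.59 (SD).

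The next piece upstream of HPF1, IYOL155C-1, was the only one of the 41 flanking features with a difference between groups that passed. It ranged from -1.12 to 0.29 with a median of -0.33 on 4 arrays labelled rrm3 delete, from -0.03 to 1.31 with a median of 0.56 on 5 Rrm3 IP arrays and from -0.17 to 1.49 with a median of 0.35 on 3 wild-type arrays. In the fit it was 1.06 ± 0.26 higher in the Rrm3 IP than on the arrays labelled rrm3 delete (adjusted p 0.0484, limma), with overlapping groups. Of all features 2.32% passed in that difference, and 1 of 41 is near that share. Its difference between arrays labelled rrm3 delete and wild type, -1.08, did not pass. In limma 0 of the 41 flanking features passed in either difference from wild type, and 1 (rrm3 delete) and 2 (Rrm3 IP) had an unadjusted p under 0.05. Of all features, 0.557% (rrm3 delete) and 0.00808% (Rrm3 IP) passed the adjusted test.

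**Figure D3:**
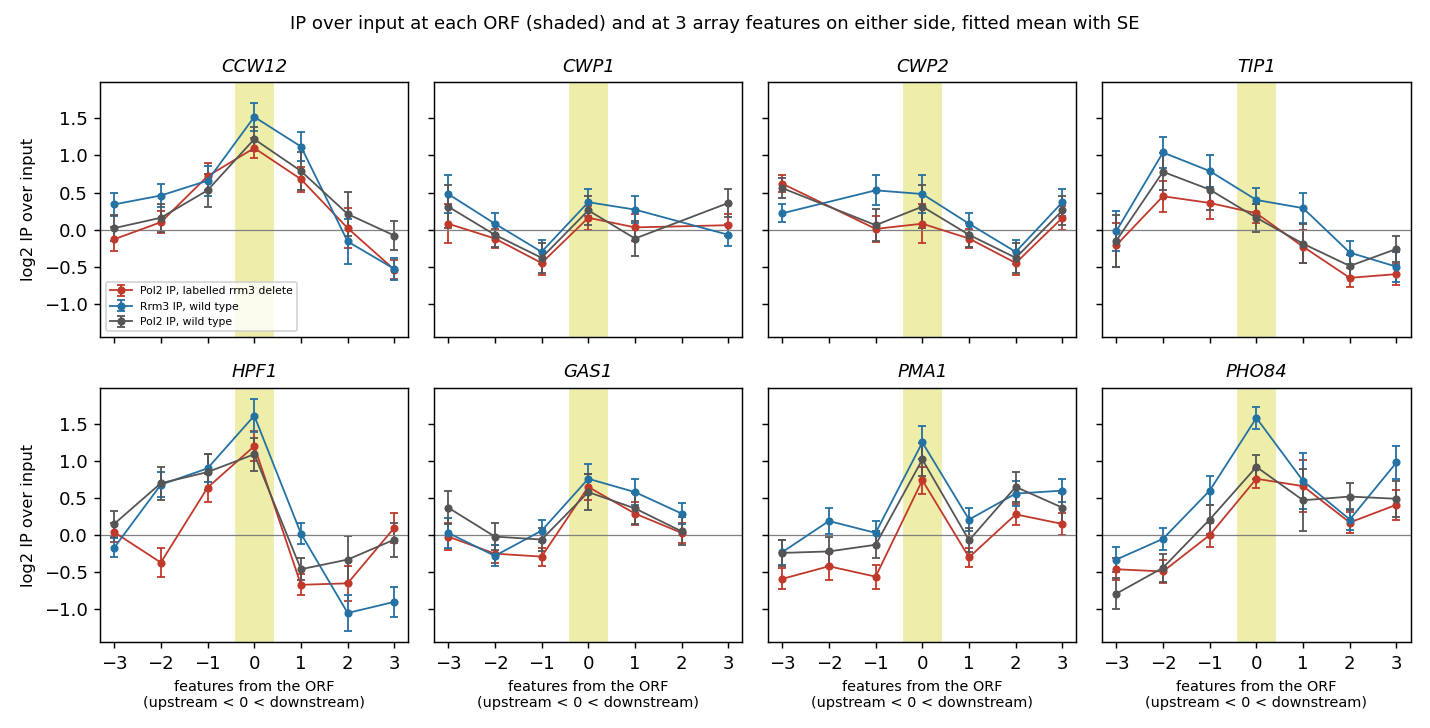
Fitted log2 IP over input (vertical axis, with SE bars) at each ORF (shaded, position 0) and at the 3 array features on either side (horizontal axis, in features, upstream negative), for arrays labelled rrm3 delete, Rrm3 IP and wild-type Pol2 IP. PMA1 stands above both its neighbours, with features farther downstream raised in the Rrm3 IP. CCW12 is raised at both neighbours, HPF1 is raised on its upstream side, and TIP1 lies on a slope that climbs towards BAP2. The ORFs, but not their neighbours, were chosen on these levels.

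The neighbours of PHO84 varied widely between arrays. Downstream, IYML124C had 0.66 ± 0.35 on arrays labelled rrm3 delete, 0.73 ± 0.38 in the Rrm3 IP and 0.47 ± 0.42 in wild type, and none passed; the Rrm3 IP arrays ran from -1.85 to 2.19 there. Upstream, in the region that holds the promoter, IYML123C had 0, 0.6 ± 0.2 and 0.21 in the same groups, and passed in the Rrm3 IP (adjusted p 0.0392, limma). For GAS1 the higher neighbour was the downstream one: IYMR307W there had 0.29, 0.58 and 0.36, with the Rrm3 IP passing (adjusted p 0.0341), and IYMR306C-A upstream had -0.29, 0.06 and -0.06, with none passing.

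Next to TIP1 the fitted level was higher than that of the ORF upstream and lower downstream, differences that were not tested. The upstream region IYBR067C had 0.36 ± 0.21 on arrays labelled rrm3 delete, 0.79 ± 0.21 in the Rrm3 IP and 0.54 ± 0.27 in wild type, passing in the Rrm3 IP (adjusted p 0.0152, limma). BAP2, a branched-chain amino acid permease and the next ORF, had 0.45, 1.04 and 0.78, also passing in the Rrm3 IP (adjusted p 0.00591). The TIP1 ORF exceeded its upstream neighbour on 3 of 11 arrays. Downstream, IYBR066C had -0.23, 0.29 and -0.19, none passing, and the ORF exceeded it on 9 of the 11. NRG2, a transcription repressor and the next ORF on that side, was lower than the array median on arrays labelled rrm3 delete (-0.65, adjusted p 0.00363, limma).

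Next to CWP1 and CWP2 no feature passed. The piece just upstream of CWP1, IYKL097W-A-1, had -0.45 on arrays labelled rrm3 delete, -0.3 in the Rrm3 IP and -0.38 in wild type, and IYKL096W downstream of it had 0.03, 0.27 and -0.12. Upstream of CWP2, IYKL097C had 0.01, 0.53 and 0.06, and the piece downstream, IYKL097W-A-0, had -0.12, 0.08 and -0.07. None of these 4 passed in any group. Farther out, at 3 features upstream of CWP2, IYKL098W had 0.62, 0.22 and 0.56 and passed as higher on arrays labelled rrm3 delete (adjusted p 0.001, limma) and in wild type (adjusted p 0.0294), the 1 flanking feature of 41 to do so in wild type. With array 136 as labelled, 0 flanking features passed as higher in wild type.

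Other genes of the wall and membrane, listed with earlier results of these data known, were compared as counts. Of 30 other wall protein genes, 12 passed as higher than the array median on arrays labelled rrm3 delete, 5 in the Rrm3 IP and 1 in wild type, where 9.38%, 11% and 0.937% of all features did. Their medians were 0.51, 0.29 and 0.34. The highest on arrays labelled rrm3 delete were SED1 (1.43), HSP150 (1.41) and CSS1 (1.09), of which SED1 and HSP150 are abundant structural mannoproteins. CSS1 (1.24) and CIS3 (0.76) were highest among those passing in the Rrm3 IP, and FLO5, a flocculin, was lowest (-0.71). CSS1, a relative of HPF1, was the only one of the 30 to pass in all 3 groups, at 1.09 ± 0.15, 1.24 ± 0.19 and 0.94 ± 0.22 (adjusted p 0.000202, 0.00102 and 0.0286, limma). Whether similar sequences shared signal on their spots was not tested.

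Among 24 tested genes for glucan and chitin enzymes and their assembly, 5, 6 and 1 passed as higher in the same order of groups, where 9.38%, 11% and 0.937% of all features did. CRH1 (0.83), KRE1 (0.8) and UTR2 (0.68) led on arrays labelled rrm3 delete, and SCW4 (1.09), CTS1 (1.02) and UTR2 (0.94) in the Rrm3 IP. UTR2, which links chitin to glucan, was the one that passed in wild type, at 0.75 ± 0.15. The medians of this list were 0.22, 0.12 and 0.26.

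Genes that share a function with PHO84 or PMA1 had list medians of 0.15, 0.2 and 0.13 (phosphate genes) and 0.15, 0.14 and 0.16 (transporters) in the same order of groups. Of 22 tested phosphate genes, 3 passed as higher on arrays labelled rrm3 delete (PHO87 1.48, PHO12 0.53, PHO3 0.47), 2 in the Rrm3 IP (VTC3 0.87, SPL2 0.49) and 0 in wild type, where PHO12 was highest (0.61) and PHM8 lowest (-0.44); 2 had an unadjusted p under 0.05 there (limma). Of 36 tested plasma membrane transporters and pumps, 4 passed as higher on arrays labelled rrm3 delete, led by MUP1 (0.62), FET3 (0.58) and TRK2 and MEP1 (both 0.56). In the Rrm3 IP 5 did, led by BAP2 (1.04), FCY2 (0.89) and PMP3 (0.64), and 0 did in wild type, where BAP2 was highest (0.78) and PMP2 lowest (-0.33); 5 had an unadjusted p under 0.05 there. The shares of all features passing as higher were 9.38%, 11% and 0.937%.

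Of 10 tested close relatives of the 8 genes, 2 passed as higher on arrays labelled rrm3 delete (CSS1 and GAS4), 1 in the Rrm3 IP and 1 in wild type (CSS1 in both), where 9.38%, 11% and 0.937% of all features did; 1 of 10 is near the share of all features in the Rrm3 IP. PMA2, the second proton pump gene, had 0.24 on arrays labelled rrm3 delete, 0.14 in the Rrm3 IP and 0.12 in wild type, none passing, where PMA1 had 0.74, 1.25 and 1.02. PHO89, the sodium-dependent phosphate transporter, had 0.52, -0.34 and 0.12, none passing. Among the GAS1 relatives, GAS3 had -0.14, -0.18 and -0.42 and GAS5 -0.05, 0.03 and 0.32, none passing. GAS4, which acts in spore formation, had 0.63, -0.48 and 0.26 and passed on arrays labelled rrm3 delete (adjusted p 0.0189, limma). TIR1 to TIR4, relatives of TIP1, lay between -0.44 and 0.49 in all groups with none passing. GAS2 and CCW22 were not tested here.

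**Figure D4:**
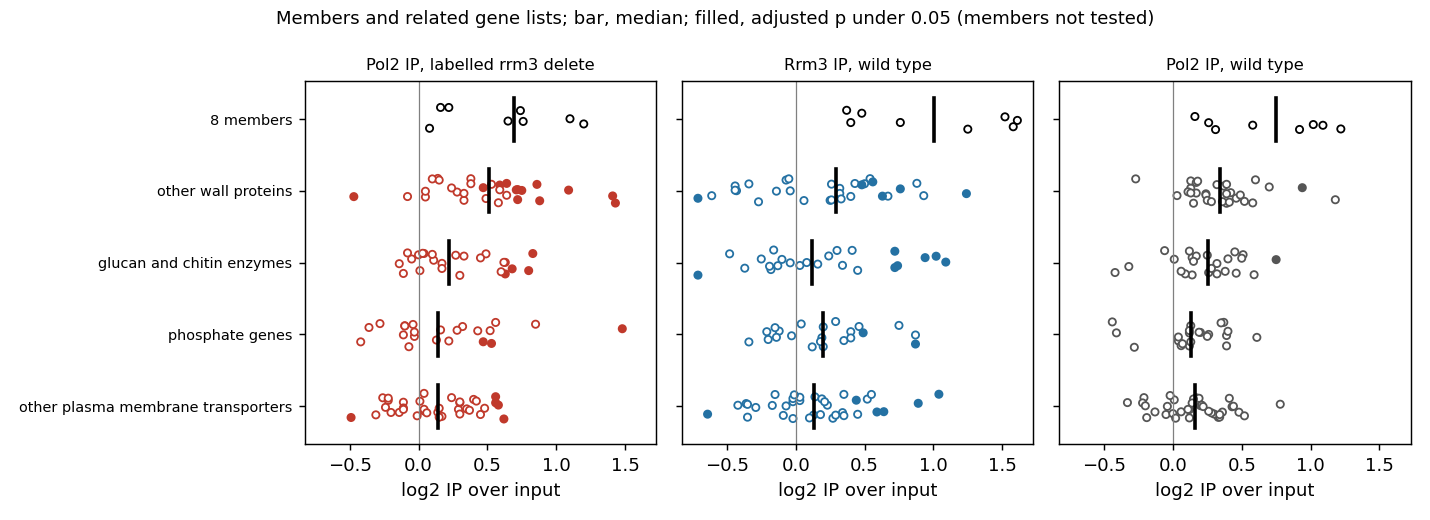
Fitted log2 IP over input (horizontal axis) of the 8 genes (open black circles, not tested) and of the genes of 4 related lists, in panels for arrays labelled rrm3 delete, Rrm3 IP and wild-type Pol2 IP from left to right; black bars are medians and filled circles passed an adjusted p of 0.05. The 8 genes were chosen on these levels, so their place against the lists is not a result; 12 wall protein genes are filled as higher in the first panel.

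Few genes of these lists differed between groups. On arrays labelled rrm3 delete against wild type, 1 of 30 wall protein genes (DAN4, 0.75, adjusted p 0.0447, limma), 0 of 24 glucan and chitin genes, 1 of 22 phosphate genes (PHO87, 1.22, adjusted p 0.0189) and 0 of 36 transporters passed, where 0.557% of all features did. In the 2 lists with no call no gene had an unadjusted p under 0.05 either, and the highest and lowest were KRE1 (0.4) and GAS5 (-0.37), and FCY2 (0.31) and PMP3 (-0.43). In the Rrm3 IP against wild type no gene of any list passed in limma, where 0.00808% of all features did; 4 wall protein genes, 2 glucan and chitin genes, 1 phosphate gene and 3 transporters had an unadjusted p under 0.05. The extremes of that difference were EGT2 (0.38) and TIR4 (-0.9) for wall proteins, CTS1 (0.75) and GAS4 (-0.74) for glucan and chitin genes, VTC3 (0.81) and PHO89 (-0.46) for phosphate genes, and FCY2 and AGP1 (0.72 and -0.72) for transporters. Against the arrays labelled rrm3 delete, 3 genes were higher in the Rrm3 IP (VTC3, PMP1 and PMP3) and 3 lower (DAN4, GAS4 and PHO87), where 0.412% and 1.91% of all features were.

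Across the 15 arrays in groups, the mean of the 8 genes was followed most closely by GLO4 (Pearson r 0.95), the intergenic region IYEL045C (0.92), CBF1 (0.92), GLN1 (0.92) and RPS26A (0.91), out of 10718 features measured on at least 13 arrays. The closest feature to PMA1 was TEF2 (0.94), to CWP2 RPL9A (0.94), to CWP1 CET1 (0.91), and to PHO84 the intergenic region IYKL028W (0.92). For CCW12, TIP1, HPF1 and GAS1 the closest were intergenic regions, IYFL022C (0.96), IYKR096W (0.93), IYEL045C (0.93) and IYLR441C (0.95). These are descriptions: the points are arrays that differ in group and width, and the best of many candidates is high by selection. Between pairs of the 8 genes r ran from -0.5 (CWP1 and TIP1) to 0.78 (HPF1 and PMA1), and CWP1 and CWP2, neighbours on the chromosome, had -0.42.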

How the data were processed

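MYC-tag IP and input DNA were compared on 16 two-colour arrays; 15 fell into groups by their labels, and array 231, whose labels contradict each other on the deletion, was kept out. The deposited intensity values, per the file headers, are median spot signals and median local backgrounds of both channels. The authors also deposited a log2 table with 1 column per array, which the series text describes as median-normalised ratios. The genome build, the scanner and its software were not stated, so no coordinates are printed, and no sequences were available to print.

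Backgrounds were subtracted, spots with a quality flag or a signal not above 0 left out, log2 ratios averaged over spots of 1 name and centred on the array median. Features measured on at least 3 arrays of each group were fitted with limma 3.58.1 in R 4.3.3, with dye orientation as a covariate and Benjamini-Hochberg adjustment over 12380 features. The script was tested on simulated data, for arrays labelled rrm3 delete minus wild type. It recovered 18% of 100 features set to differ by 1 log2 unit, and 88% of 100 set to differ by 2. Most differences of 1 log2 unit were thus missed. Symbols and gene order came from the RefSeq R64 table; an intergenic feature was placed to the right of the ORF in its name, since ORFs whose feature is split into pieces had a median gap of 1914 bases on the right and 519 on the left. The number of arrays limits the precision.

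The 8 genes and all lists were chosen with earlier results of these data known. Named were the 8 genes, every feature next to them, their close relatives, in each list and contrast up to 3 genes past the threshold in order of size (otherwise the highest and lowest), and for likeness the 5 features closest to the mean and the closest to each gene. AHP1, LEU1, NRG2, IYLR108C, IYKL098W, IYGL010W and the second piece upstream of HPF1 were named after their values were seen. Alternatives covered background, flags, dye, normalisation, the deposited table, single arrays and, added after seeing the data, arrays scaled to equal width.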

Additional observations from a re-analysis of the deposited data

Results flagged for a closer look

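The ratio of IP over input of 7 features beside or related to the 8 genes differed between groups by the fit (limma, adjusted p under 0.05). They came from 41 flanking features and lists of 30, 24, 22 and 36 tested genes. Of all features, 0.557% passed for rrm3 delete minus wild type and 0.00808% for Rrm3 IP minus wild type. For the Rrm3 IP minus the arrays labelled rrm3 delete 2.32% did. The number of calls changed with the processing, as given below. PHO87, a low-affinity phosphate transporter gene, ranged from 1.3 to 1.59 on 6 arrays labelled rrm3 delete, against -0.64 to 0.39 on 5 Rrm3 IP arrays and 0.17 to 0.31 on 3 wild-type arrays, with differences of 1.22 from wild type (rrm3 delete minus wild type) and -1.44 for the Rrm3 IP minus the arrays labelled rrm3 delete. DAN4, a wall mannoprotein gene, ranged from 0.44 to 1.16 on arrays labelled rrm3 delete, against -0.64 to 0.2 in the Rrm3 IP and -0.12 to 0.3 in wild type, with differences of 0.75 and -1.13 in the same order. GAS4 was lower in the Rrm3 IP than on the arrays labelled rrm3 delete by a log2 difference of -1.12. VTC3, part of the vacuolar polyphosphate complex, was higher in the Rrm3 IP by 0.97. PMP1 and PMP3, which encode small plasma membrane proteins, were higher in the Rrm3 IP by 0.93 and 0.95. IYOL155C-1, upstream of HPF1, was higher in the Rrm3 IP by 1.06.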

How the results depend on the processing

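No paired analysis was possible because the labels give each array a number of its own and no replicate numbers shared between groups. The count of features called was 69 for arrays labelled rrm3 delete minus wild type. It was 43 with array 136 as labelled, 38 with normexp, 37 without a dye term, 0 on arrays that are not dye swaps alone, 21 in the deposited table, 215 without arrays 031 and 041, 26 without arrays 136 and 182, 270 with arrays scaled to equal width, and 10 to 236 leaving out single arrays. The count for the Rrm3 IP minus wild type was 1, and it was 0 with array 136 as labelled, without background subtraction, with normexp, loess, no flag filter or no dye term, on non-swapped arrays alone, in the deposited table and without arrays 136 and 182; it was 2 without failed PCR products, 33 without arrays 031 and 041, 50 at equal width and 0 to 1 leaving out single arrays. The count for the Rrm3 IP minus arrays labelled rrm3 delete was 287, against 189 without the flag filter, 48 on non-swapped arrays, 659 at equal width and 131 to 589 leaving out single arrays.

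The median of the 8 levels on arrays labelled rrm3 delete was 0.31 on non-swapped arrays, where only CWP1, CWP2 and PHO84 could be fitted, and 0.63 to 0.76 leaving out single arrays. In the Rrm3 IP it was 1.71 without arrays 031 and 041, where only CWP2, HPF1 and PHO84 could be fitted, and 0.59 to 1.51 leaving out single arrays. In wild type it was 0.48 with array 136 as labelled, 0.21 on non-swapped arrays and 0.55 to 1.09 leaving out single arrays. The high ends of 0.76, 1.51 and 1.09 came with a wild-type array other than 136 left out. CWP1, TIP1 and GAS1, which array 136 did not measure, then dropped out, so those medians cover other genes. The flanking features higher than the array median numbered 2 without background subtraction and 0 on non-swapped arrays for the arrays labelled rrm3 delete, and 2 to 5 leaving out single arrays. For the Rrm3 IP they numbered 2 on non-swapped arrays, 5 in the deposited table and 3 to 12 leaving out single arrays. For wild type they numbered 0 with array 136 as labelled, on non-swapped arrays and without arrays 136 and 182, 2 with normexp or loess, 3 without the flag filter, 6 without arrays 031 and 041, 8 at equal width, and 0 to 6 leaving out single arrays.

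Small differences that did not pass changed sign. For arrays labelled rrm3 delete minus wild type, array 136 as labelled gave 0.51 for CCW12, 0.05 for CWP2, 0.2 for PMA1 and 0.33 for PHO84 (and 0.65 for HPF1, with no change of sign); HPF1 was -0.03 without background subtraction; CWP1 was 0.1 on non-swapped arrays and -0.21 to 0.02 leaving out single arrays; TIP1 was -0.02 in the deposited table and 0 to 0.12 leaving out single arrays; GAS1 was -0.08 without the flag filter, 0 in the deposited table, -0.01 at equal width and -0.04 to 0.14 leaving out single arrays. For the Rrm3 IP minus wild type, CWP1 was -0.02 with loess, -0.05 in the deposited table and -0.07 at equal width; CWP2 was -0.23 on non-swapped arrays and -0.03 to 0.58 leaving out single arrays; CCW12 was -0.17, PMA1 -0.09 and HPF1 -0.1 at equal width; GAS1 was -0.01 in the deposited table and -0.04 to 0.52 leaving out single arrays. For the Rrm3 IP minus arrays labelled rrm3 delete, GAS1 was -0.01 in the deposited table and -0.13 to 0.41 leaving out single arrays. The cause was not tested, apart from the smaller number of arrays in the leave-out settings. Where leaving out an array left a gene or other feature with fewer than 3 arrays in a group, it has no value. It is then not in the counts or medians of that setting.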

Other observations

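Array 231, whose labels disagree about the deletion, was left out of all comparisons. Its log2 ratios of IP over input were 1.16 for CCW12, 1.45 for HPF1, 0.47 for CWP1, 0.33 for CWP2, 0.42 for TIP1, 0.32 for GAS1, 0.52 for PMA1 and 1.18 for PHO84. Its RRM3 spot lay at percentile 21.7 of the input signal.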
